A study of Mus musculus with 32 samples.

Results

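The comparison described here set the m6A immunoprecipitate (IP) of liver RNA against the input RNA of the same liver in 4 mice labelled Mettl14 KO that had sham surgery. It asks which mRNAs were over- or under-represented after pull-down with an antibody against m6A. Each animal gave 1 input and 1 IP library, so 8 of the 32 libraries of the series entered the comparison, paired by animal. Genes were kept where the mean input level of the 4 animals was 50 counts per 1000000 counts of the library (CPM) or more, which left 2872 of the 55421 genes in the deposited table. The rule cut through a dense range of levels: 244 genes lay at 50 to 55 CPM in input, with a median IP level of 43.4 CPM, and 282 genes at 45 to 50 CPM, with a median of 41.2 CPM.

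The other groups of the series were sham-operated mice with the floxed gene (flox) and hepatectomised mice of both genotypes, 4 animals each with 2 libraries. The sham KO mice were 73, 73, 73 and 72 days old (replicates 1 to 4), and the sham flox mice 71 to 77 days. Each animal is a separate replicate in the labels, and no group without surgery was analysed here. The Cre driver and the cell type in which Mettl14 was deleted are not given in the labels. Input libraries were made with a stranded mRNA kit (TruSeq). IP libraries were made with a different kit (NEBNext Ultra) from RNA broken into pieces of about 100 nucleotides. Pull-down, fragmentation and kit therefore changed together, and their parts in any difference between IP and input cannot be told apart.

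N6-methyladenosine (m6A) is the most common internal mark of mRNA. It is written in the nucleus by a complex in which METTL3 carries the catalytic activity and METTL14 holds the RNA, with WTAP, VIRMA, ZC3H13 and HAKAI (Cbll1) as further subunits. FTO and ALKBH5 can remove it, and proteins of the YTH family bind it and affect the splicing, translation and decay of the mRNA. In liver, hepatocytes make most of the plasma proteins, among them the fibrinogen chains, which form clots, and the acute phase proteins, whose output changes in inflammation.

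Input libraries held 8177746 to 11304071 counts with 4176 (replicate 2) to 9354 (replicate 3) genes at 10 counts or more. IP libraries held 14887106 to 24297713 counts with 11013 to 16846 such genes. Over the kept genes the inputs correlated with each other at r 0.19 to 0.49 and the IPs at 0.80 to 0.86, across genes, which are not independent replicates. Of the kept genes, 818 had fewer than 3 counts in at least 1 input, and 938 had over 50% of their input CPM in 1 library (replicate 2 for 301 of them). Mettl14 itself (ENSMUSG00000028114) had 0 counts in all 4 inputs, which allows up to 0.265, 0.267, 0.294 and 0.367 CPM by a floor of 3 counts, and 0, 38, 0 and 52 counts in the IPs, so the genotype label could not be checked in these libraries. Hepatocyte markers were plain in every library (summed level of 8 genes 82200 to 94800 CPM in input), while 11 of 12 leukocyte markers were below 3 counts in all inputs.

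In sham KO liver, 18 genes were lower in IP than in input past the threshold. Of these, 6 belonged to a list of positive acute phase genes and 2 encoded fibrinogen chains, and the others included Alb, Mup3 and Serpina1e. Scd1, the main fatty acid desaturase of liver, was the single kept gene past the threshold in the other direction, at 2.38-fold higher in IP. Among genes past the threshold with a symbol, the largest reductions were those of B3galt1 (6.93-fold), Steap4 (5.21-fold) and Lcn2 (4.40-fold). The threshold was an adjusted p under 0.05 in edgeR's quasi-likelihood test with the animal as a block, adjusted over 10227 genes. It was passed by 0.0348% of the kept genes that were fitted in the direction of IP and by 0.627% in the direction of input. Over all genes fitted the shares were 0.0196% and 0.176%. At an unadjusted p under 0.05, 74 of the 2870 kept genes fitted were higher and 69 lower. With no true difference, a share of 0.05 of the genes would be expected to pass that cut, so these counts are not read as further differences. The count of lower genes was 6 without replicate 1, 27 without replicate 2, 7 without replicate 3 and 9 without replicate 4.

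**Figure D1:**
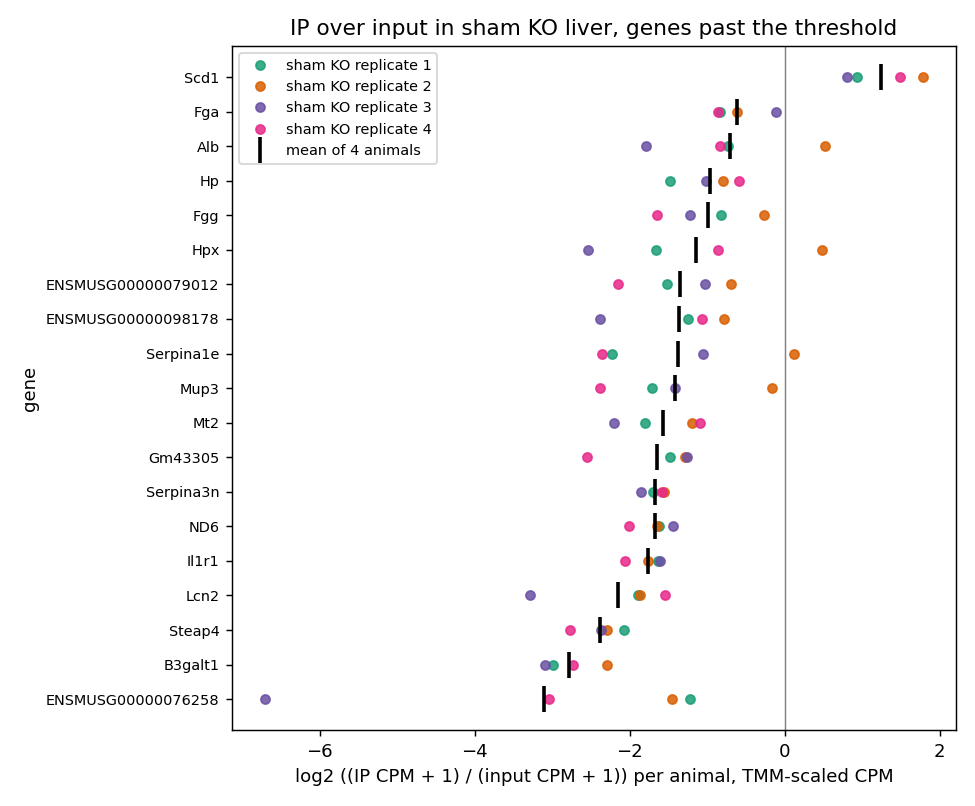
Log2 ratio of IP to input level in each of the 4 sham KO animals (points, 1 colour per replicate; CPM scaled by TMM, 1 added to each) for the 19 genes past the threshold, with the mean of 4 animals as a black bar. Scd1 lies to the right of 0 in all 4 animals, 15 of the 18 other genes lie to the left of 0 in all 4, and replicate 2 is above 0 for Alb, Hpx and Serpina1e.

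Of the 18 lower genes, 15 were lower in all 4 animals, against 8.01% of all kept genes. In 10 of the 18, no IP level reached any input level, against 2.89% of the kept genes. Scd1 was higher in all 4 animals with no overlap, against 5.4% and 2.16% of the kept genes. At 200 CPM or more in input, 5.81% of the genes were higher and 14.3% lower in all 4 animals. These counts rest on the same libraries as the test and are given as a description. The calls lay among abundant genes: 15 of the 18 had an input level of 1000 CPM or more, and none of the kept genes under 200 CPM passed. The spread between animals was wider at low levels: the median SD of the log2 ratio between animals was 2.78 at 50 to 100 CPM and 0.473 at 3000 CPM or more.

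**Figure D2:**
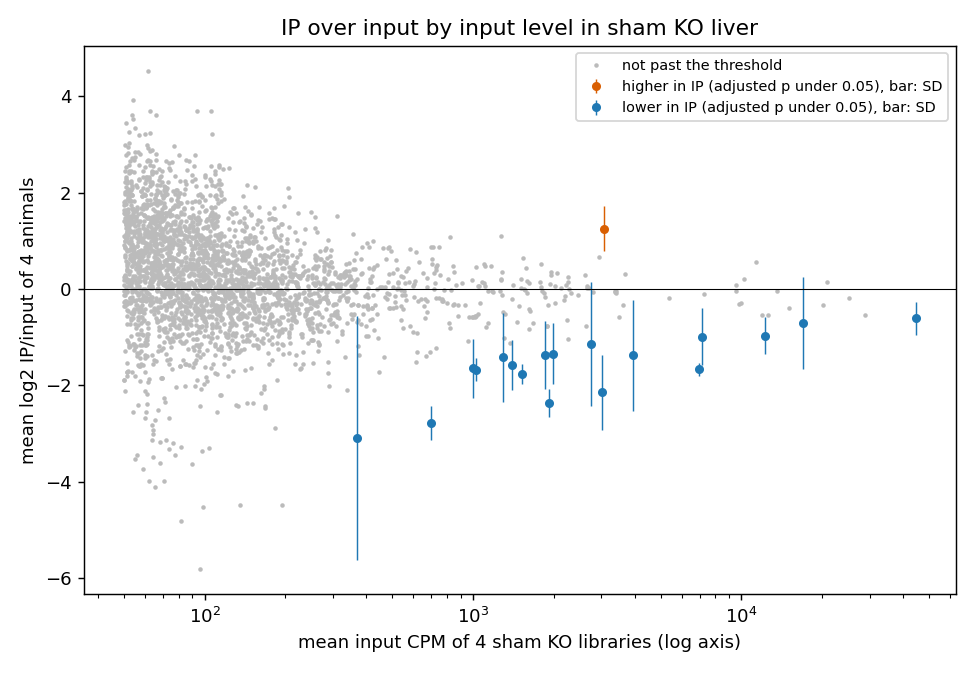
Mean log2 IP/input of 4 sham KO animals (vertical axis) against the mean input level (horizontal log axis, CPM) for the 2872 kept genes, with genes past the threshold in colour and the SD of the 4 animals as bars. The cloud narrows from left to right, and no coloured gene lies below 200 CPM.

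The acute phase genes led the lower group. Lipocalin 2 (Lcn2, ENSMUSG00000026822, chromosome 2, 32384633 to 32388252, minus strand, as the table gives positions) binds bacterial siderophores and so withholds iron. Its input level was 2414, 3970, 2895 and 2866 CPM in replicates 1 to 4, and its IP level 668, 1101, 319 and 957 CPM. Every IP level lay below every input level, with replicate 3 the lowest in IP. The log2 IP/input was -2.14 (SE 0.28, adjusted p = 3.1e-10 by edgeR). Here and below, SE is derived from edgeR's test statistic. It rests largely on the spread shared over genes and does not measure the spread of the 4 animals. Serpina3n (chromosome 12, 104406729 to 104414329, plus strand), a secreted serine protease inhibitor, went from 6119, 8081, 6641 and 6880 CPM in input to 1945, 2789, 1988 and 2222 CPM in IP. No IP level reached an input level, and it had the smallest SD between animals of the 18 lower genes, with a mean log2 ratio of -1.67 ± 0.135 (SD, n = 4 animals; adjusted p = 3.1e-10 by edgeR).

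Steap4, a metalloreductase of iron and copper (ENSMUSG00000012428, chromosome 5, 7960457 to 7982213, plus strand), stood at 1695, 2651, 1525 and 1777 CPM in input. In IP it stood at 413, 548, 318 and 251 CPM, below every input level (log2 -2.38, SE 0.32, adjusted p = 3.1e-10 by edgeR). Haptoglobin (Hp), which captures free haemoglobin, was at 11251, 14065, 12001 and 11683 CPM in input and 4143, 8231, 6409 and 7570 CPM in IP. All 4 animals were lower in IP, replicate 1 most and replicate 4 least (log2 -0.97, SE 0.19, adjusted p = 0.00045 by edgeR). The zinc-binding metallothionein Mt2 was at 1437, 1754, 1593 and 810 CPM in input and 423, 776, 375 and 367 CPM in IP (log2 -1.57, SE 0.33, adjusted p = 0.0021 by edgeR), with no overlap. Hemopexin (Hpx), the haem carrier of plasma, was split between animals: input was 2213, 2180, 3338 and 3318 CPM and IP 719, 3079, 620 and 1770 CPM, so that replicate 2 went the other way and the groups overlapped (log2 -1.16, SE 0.28, adjusted p = 0.018 by edgeR). The log2 ratio of Hpx had an SD of 1.28 between animals. The Hp and Mt2 calls were lost without replicate 1 or 3, and the Hpx call without replicate 1, 3 or 4.

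**Figure D3:**
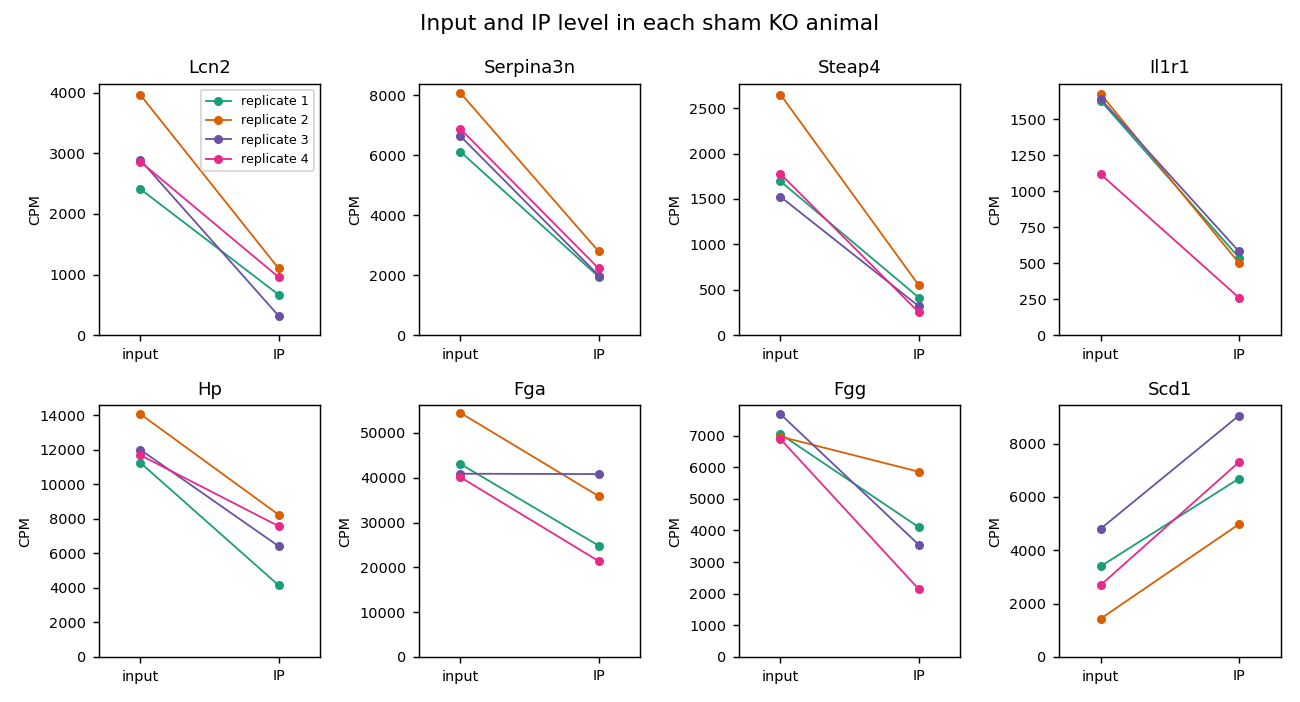
Input and IP level (CPM, linear axes from 0) of 8 genes in each sham KO animal, with a line joining the libraries of 1 animal. Lcn2, Serpina3n, Steap4, Il1r1 and Hp descend in all 4 animals, Fga is nearly level in replicate 3, and Scd1 ascends in all 4.

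Over the whole list of 26 acute phase genes, 23 were kept and fitted. The log2 IP/input was below 0 in 18 and above 0 in 5, with a median of -0.97 against 0.11 over all kept genes, and 12 were lower in all 4 animals. Of the 2870 kept genes fitted, 1275 were below 0 and 1595 above, and 8.01% of the kept genes were lower in all 4 animals. Among members that did not pass, Mt1 had -1.05 (SE 0.28, adjusted p = 0.071 by edgeR) with 2128, 2832, 2317 and 1728 CPM in input and 915, 1901, 959 and 871 CPM in IP. The members above 0 were Lbp at 1.41 (SE 1.05), Lrg1 at 0.13, Itih4 at 0.06, Hamp at 0.06 and Orm2 at 0.005, named here after their values were seen. The list thus held genes with ratios on both sides of 0, and its 5 members above 0 all had an adjusted p of 0.53 or more (edgeR). With genes at 200 CPM or more in input alone, 19 members had a median of -0.81 against -0.08 over the 602 genes of that level.

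Start regions of 12 of the 14 lower genes with an ordinary symbol were found in RefSeq's table (GRCm38.p6) and were searched. In the 250 bases before the RefSeq start, a STAT motif (TTCNNNGAA) was found in 2 of the 12 genes, against 7.0% of all 32851 start regions, and a C/EBP motif (TTGCNNAA) in 8 of the 12, against 9.6%. These shares are not like for like. A gene counted if any of its start regions matched, while the background is per region and over all genes rather than abundant liver genes. The 12 genes were also chosen by their calls in these data. Both strands were searched, the matches shown do not overlap, and a match is not a site. The 2 genes with both kinds of match are shown, up to the base before the gene model of the deposited table, with the matches in capitals. The region of Serpina3n held neither motif. STAT3 and C/EBP factors are known regulators of acute phase genes. The IP to input ratio is a measure of RNA and was not tested against these letters.
Steap4, chr5:7960222-7960456, plus strand: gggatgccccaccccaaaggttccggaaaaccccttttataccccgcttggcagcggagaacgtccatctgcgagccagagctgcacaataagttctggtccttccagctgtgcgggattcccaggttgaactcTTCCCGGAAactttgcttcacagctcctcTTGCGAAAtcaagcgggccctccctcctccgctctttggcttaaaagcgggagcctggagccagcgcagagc
Fga, chr3:83025903-83026075, plus strand: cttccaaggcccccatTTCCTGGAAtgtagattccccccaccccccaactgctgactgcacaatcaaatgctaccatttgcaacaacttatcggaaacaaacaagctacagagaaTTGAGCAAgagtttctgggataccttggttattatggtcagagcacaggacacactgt

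The 3 fibrinogen chains, whose synthesis the study's title names, were lower in IP in all 4 animals, and Fga and Fgg passed the threshold. Of the 31 kept genes at 3000 CPM or more in input, where the chains lie, 22.6% were lower in all 4 animals. The median of the mean log2 ratio at that level was -0.28. Fga (ENSMUSG00000028001, chromosome 3, 83026076 to 83033627, plus strand) was at 43083, 54498, 40895 and 40128 CPM in input and 24826, 35877, 40817 and 21371 CPM in IP. Replicate 3 was nearly level, and the groups overlapped through it (log2 -0.61, SE 0.14, adjusted p = 0.012 by edgeR). Fgg (ENSMUSG00000033860, chromosome 3, 83007724 to 83015049, plus strand) was at 7052, 6969, 7681 and 6893 CPM in input and at 4102, 5858, 3546 and 2140 CPM in IP, with no overlap (log2 -0.99, SE 0.21, adjusted p = 0.0033 by edgeR). Fgb (ENSMUSG00000033831, chromosome 3, 83040141 to 83049863, minus strand) was at 11034, 14389, 10910 and 11248 CPM in input and 7676, 12597, 7987 and 6306 CPM in IP (log2 -0.53, SE 0.19, adjusted p = 0.097 by edgeR); the groups overlapped and it did not pass. The Fga call was lost without replicate 1, 2 or 4, and the Fgg call without replicate 1, 3 or 4.

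Other clotting genes had no call. Of 19 fitted clotting factors and regulators, 16 had a log2 ratio above 0 and 3 below, with a median of 0.21, and none passed. Over all 2870 kept genes fitted, 1595 were above 0 and 1275 below. Histidine-rich glycoprotein (Hrg) had 0.35 (SE 0.26), plasminogen (Plg), the precursor of the enzyme that dissolves clots, 0.35 (SE 0.29), antithrombin (Serpinc1) 0.45 (SE 0.33) and plasma kallikrein (Klkb1) 1.37 (SE 1.06). A difference between these genes and the fibrinogen chains was not tested.

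Protease inhibitors of the Serpina1 and Serpina3 clusters were unequal. Serpina1e, an alpha-1-antitrypsin gene, was at 4242, 4019, 4512 and 2975 CPM in input and 932, 4406, 2343 and 561 CPM in IP (log2 -1.40, SE 0.26, adjusted p = 7.3e-05 by edgeR), with replicate 2 slightly above 0. The SD of its log2 ratio between animals was 1.16, and the call was lost without replicate 1 or 4. Its neighbour Serpina1d stood at 1717, 1500, 2364 and 1554 CPM in input and 1946, 3062, 3082 and 2306 CPM in IP, higher in all 4 animals without passing (log2 0.51, SE 0.26, adjusted p = 0.33 by edgeR). Serpina3k had a log2 ratio of -0.53 (SE 0.19, adjusted p = 0.098 by edgeR). The unnamed ENSMUSG00000079012, which spans the Serpina3k and Serpina3m genes on chromosome 12 (104338486 to 104394257), was at 1918, 1933, 1787 and 2281 CPM in input and 688, 1210, 944 and 498 CPM in IP (log2 -1.35, SE 0.30; call lost without replicate 1, 3 or 4). These genes are close copies, and overlapping models can share reads, so the division of counts among them is uncertain.

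The same uncertainty holds for the major urinary proteins, which carry pheromones and are made from a tandem array of near-identical genes. All 9 fitted members had a log2 ratio below 0 (median -1.43), against 1275 of the 2870 kept genes fitted, and 5 were lower in all 4 animals. Mup3 passed, with 1744, 657, 1788 and 964 CPM in input and 549, 592, 723 and 178 CPM in IP (log2 -1.43, SE 0.34, adjusted p = 0.018 by edgeR); the call was kept in 6 of 14 alternatives and lost without replicate 1, 3 or 4. Mup7 was at 267, 221, 118 and 168 CPM in input and 9.47, 2.89, 21.5 and 4.69 CPM in IP, a log2 difference of -4.75 (SE 1.33) that did not pass (adjusted p = 0.097 by edgeR). Albumin (Alb), the main plasma protein, passed narrowly at 14470, 13367, 21108 and 19154 CPM in input and 8955, 19353, 6602 and 10461 CPM in IP, with replicate 2 in the other direction (log2 -0.72, SE 0.18, adjusted p = 0.047 by edgeR). The Alb call was kept in 3 of 14 alternatives, and the SD of the log2 ratio of Alb between animals was 0.946.

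B3galt1 and Il1r1, protein-coding genes outside these lists, were lower in every animal. B3galt1, a galactosyltransferase that builds glycan chains (ENSMUSG00000034780, chromosome 2, 67565871 to 68122689), was at 793, 507, 959 and 530 CPM in input and 102, 104, 120 and 76.2 CPM in IP (log2 -2.79, SE 0.46, adjusted p = 4.1e-06 by edgeR). Il1r1, the receptor for interleukin 1 (ENSMUSG00000026072, chromosome 1, 40225080 to 40317257, plus strand), was at 1630, 1677, 1642 and 1119 CPM in input and 539, 501, 582 and 260 CPM in IP (log2 -1.77, SE 0.33, adjusted p = 7.6e-05 by edgeR). In both genes every IP level lay below every input level, with SDs of the log2 ratio of 0.358 and 0.206. B3galt1 and Steap4 passed in 13 of 14 alternatives, and Il1r1 and Serpina3n in 12.

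The mitochondrial mRNAs, which are not made in the nucleus where the METTL3 and METTL14 complex works, had 1 call. Of 13 fitted, 10 were below 0 and 3 above, with a median of -0.09. ND6, the single mRNA encoded on the light strand, was at 1065, 1031, 1343 and 676 CPM in input and 355, 333, 534 and 163 CPM in IP (log2 -1.68, SE 0.36, adjusted p = 0.0033 by edgeR), a call lost without replicate 1 or 3. ND5, its neighbour on the other strand, had -0.55 (SE 0.16, adjusted p = 0.097), COX3 -0.76 (SE 0.29) and ND4 -0.35 (SE 0.17), none past the threshold. The strand setting of the counting is not given, so for ND6, which overlaps transcripts of the other strand, the origin of the reads was not tested.

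The other lower genes were Gm43305, a long noncoding RNA on chromosome 14 with 456, 1506, 776 and 1246 CPM in input and 167, 625, 350 and 206 CPM in IP (log2 -1.64, SE 0.37; call lost without replicate 1, 3 or 4), and a pair of models without a symbol. ENSMUSG00000098178 on chromosome 17, which overlaps a ribosomal RNA pseudogene, had a log2 ratio of -1.36 (SE 0.30) and lost its call without replicate 1 or 3. ENSMUSG00000076258, a short model within Zc3h7a on chromosome 16 (11144125 to 11144181), had 41.5, 481, 635 and 327 CPM in input and 17.8, 178, 5.58 and 37.6 CPM in IP (log2 -2.87, SE 0.70), and replicate 3 had the widest gap; the call was lost without replicate 3 or 4.

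On the side of IP, Scd1 (ENSMUSG00000037071, chromosome 19, 44394455 to 44407879, minus strand) makes monounsaturated fatty acids. Its input level was 3395, 1430, 4804 and 2691 CPM and its IP level 6688, 4977, 9053 and 7305 CPM in replicates 1 to 4. Every IP level lay above every input level (log2 1.25, SE 0.22, adjusted p = 2.3e-05 by edgeR). The call was lost without replicate 1 (adjusted p = 0.17), replicate 2 (0.48) or replicate 4 (0.18).

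The genes next in order on that side did not pass and are given as values. Ass1, an enzyme of the urea cycle, was at 1051, 428, 1567 and 2027 CPM in input and 1475, 2571, 2892 and 3020 CPM in IP (log2 1.07, SE 0.28, adjusted p = 0.06 by edgeR). Tmbim6, a membrane protein of the endoplasmic reticulum, had 1.07 (SE 0.30), apolipoprotein E (Apoe) 0.55 (SE 0.17), transthyretin (Ttr), which carries thyroid hormone, 0.67 (SE 0.23), the glycerol 3-phosphate dehydrogenase Gpd1 2.07 (SE 0.67) and the glycerate kinase Glyctk 1.46 (SE 0.48). Each of these was higher in 4 of 4 animals and had an adjusted p of 0.097 by edgeR. The transcription factors Klf3 (log2 2.96, SE 1.05) and Nfix (2.35, SE 0.84), and Eva1a (4.07, SE 1.12), were also higher in all 4, but their inputs were uneven: Klf3 had 29.0, 0.0889, 51.9 and 147 CPM, and Eva1a 1.95, 0.178, 230 and 144 CPM.

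Lists of lipid genes had medians on both sides of the 0.11 of all kept genes, of which 1595 were above 0 and 1275 below. Of 17 genes of fatty acid and triglyceride synthesis, 13 were above 0 and 4 below (median 0.56, Scd1 the single call). Agpat2, which makes phosphatidic acid, had 1.04 (SE 0.50) and was higher in all 4 animals, and the desaturase Fads1 had 1.31 (SE 0.73). Of 21 genes of fatty acid oxidation, 17 were above 0 (median 0.47, none called), with Ehhadh of the peroxisome at 1.54 (SE 0.65) and Cpt1a, which admits fatty acids to mitochondria, at 0.77 (SE 0.44). All 4 fitted carboxylesterases were above 0 (median 0.67, none called), with 2 of them at 200 CPM or more in input. For 7 oxidation genes at 200 CPM or more the median was 0.18. Genes of cholesterol synthesis and uptake had 2 above and 8 below 0 (median -0.46, none called), with Insig2, which holds back the activation of sterol synthesis, at -1.56 (SE 0.74).

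Other functions held both directions and no call. The split over all kept genes was 1595 above 0 and 1275 below (median 0.11), and splits near it are not read as a trait of a list. Amino acid breakdown had 23 genes above and 10 below 0 (median 0.35), cytosolic ribosomal proteins 27 and 19 (0.22), apolipoproteins 8 and 6 (0.12), complement 8 and 11 (-0.05) and cytochromes P450 14 and 12 (0.01). Of 16 genes of the unfolded protein response, 9 were above and 7 below 0, yet for the 11 at 200 CPM or more the median was -0.57. That group holds the chaperone Hspa5 at -0.77 (SE 0.26), which was 2475, 3153, 2482 and 2467 CPM in input and 2716, 1798, 1758 and 714 CPM in IP, and Pdia4 at -0.83 (SE 0.30), which was lower in 4 of 4 animals. Neither passed (adjusted p = 0.097 and 0.11 by edgeR).

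**Figure D4:**
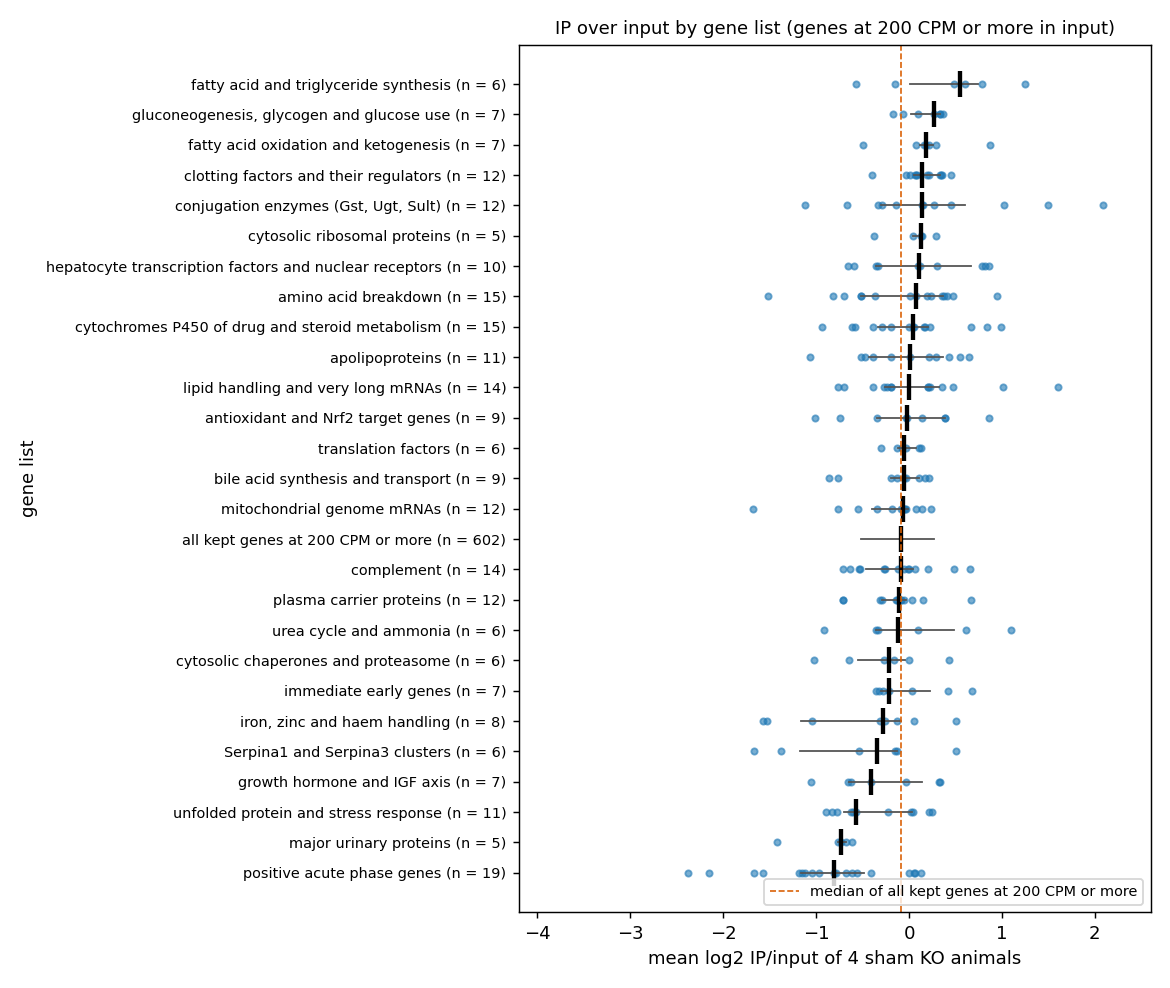
Mean log2 IP/input of 4 sham KO animals for genes at 200 CPM or more in input, grouped by list (points: genes; black bars: medians; thin lines: quartiles; number of genes in brackets), with the median of all 602 genes as a dashed line. Acute phase genes (median -0.81) and major urinary proteins (-0.74) lie lowest and fatty acid and triglyceride synthesis (0.55) highest, and most other lists straddle the dashed line.

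None of the mRNAs of the m6A machinery passed. Of the writer complex and erasers, 4 of 10 listed genes were kept: the writer subunits Zc3h13 (-0.71, SE 0.58), Cbll1 (-2.43, SE 1.42) and Virma (-0.23, SE 2.14), and the eraser Alkbh5 (-0.48, SE 1.14). They were kept by their input level in these animals (Cbll1 had 143 CPM here and 8.34 CPM in the other inputs), so nothing is read from their sign. Members under 50 CPM in input included Wtap at 16.4 ± 23.4 CPM in input and 56.7 ± 27.7 CPM in IP, Rbm15b at 21.2 ± 35.8 and 45.1 ± 19.8 CPM, and Fto at 31.2 ± 59.0 and 21.5 ± 18.9 CPM (SD, n = 4). Mettl3, the catalytic subunit, had 3, 0, 87 and 0 counts in input and 189, 0, 0 and 190 in IP and was not kept. Among 7 readers, 2 were above and 5 below 0, with Ythdc1 at -1.19 (SE 0.82). The readers were kept by the same rule (Ythdc1 had 195 CPM here and 80.4 CPM in the other inputs), so nothing is read from their sign either.

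Rank correlations of the ratio with properties of the gene models were near 0, but the ratio itself repeated poorly between animals. The median rank correlation between animals was -0.045 at 50 to 100 CPM in input, 0.036 at 100 to 200 CPM and 0.085 at 200 to 500 CPM. A relation could be missed in such ratios, so these values cannot decide whether there is one. Across 2705 protein-coding kept genes, which are not independent, the rank correlation of the mean log2 ratio was 0.063 with exon length, 0.051 with the number of exon blocks and 0.033 with the longest internal block. It was -0.311 with the input level, by which the genes were chosen and which is also the ratio's denominator; among the 555 such genes at 200 CPM or more it was -0.054. Kept by the inputs of the other 12 animals instead, 18 genes were lower and 2 higher, and these 18 were the same genes as above.

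Markers of other liver cells were few among the kept genes. None of the lists of Kupffer cell, endothelial, stellate or cholangiocyte markers had a call. The 7 fitted endothelial markers had a median of 0.86 at a median input of 68.1 CPM (Ptprb 0.46, SE 0.64; Cdh5 1.53, SE 1.71). Over all 1441 kept genes at 50 to 100 CPM, the median of the mean log2 ratio was 0.56, so nothing is read from the sign of these markers. The summed level of 12 leukocyte markers was 0 to 3.92 CPM in input and 21.6 to 113 CPM in IP, and S100a8 and S100a9, which mark neutrophils, were below 3 counts in all 4 inputs. Summed red cell markers were at 67.0 to 146 CPM in input and 50.7 to 95.9 CPM in IP. By the labels, input and IP of an animal came from the same liver. The inputs had fewer genes at 10 counts or more (4176 to 9354) than the IPs (11013 to 16846). The part of this difference in the marker levels, and of these cells in the ratios, was not tested.

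The comparison with sham flox asks whether the ratios were alike in mice with the floxed gene. Of the 18 genes lower in sham KO, 16 had a mean log2 ratio below 0 in sham flox and 12 were below 0 in all 4 sham flox animals. Among the 602 genes at 200 CPM or more, the shares were 30.7% and 9.3%. Lcn2 had a mean log2 ratio of -3.48 ± 1.47 in sham flox (SD, n = 4) and -2.15 ± 0.78 in sham KO, and Serpina3n -1.43 ± 0.824 and -1.67 ± 0.135. Steap4 had -2.09 ± 0.644 and -2.38 ± 0.292, and Fga -0.49 ± 0.572 and -0.61 ± 0.347. Scd1 had 0.85 ± 0.815 and 1.25 ± 0.461. None of these 5 differed between genotypes at the threshold (adjusted p = 1 by edgeR), which does not show that they were alike. Across the 118 genes at 1000 CPM or more, the mean ratios of the genotypes correlated at r 0.698, given as a description across genes. In hepatectomised animals, 17 of the 18 had a mean below 0 in KO and 11 in flox, against 67.9% and 23.9% of genes at 200 CPM or more. Those below 0 in all 4 hepatectomised animals were 15 in KO and 2 in flox, against 30.7% and 4.7%. Scd1 had a mean log2 ratio of -0.69 in hepatectomised KO.

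**Figure D5:**
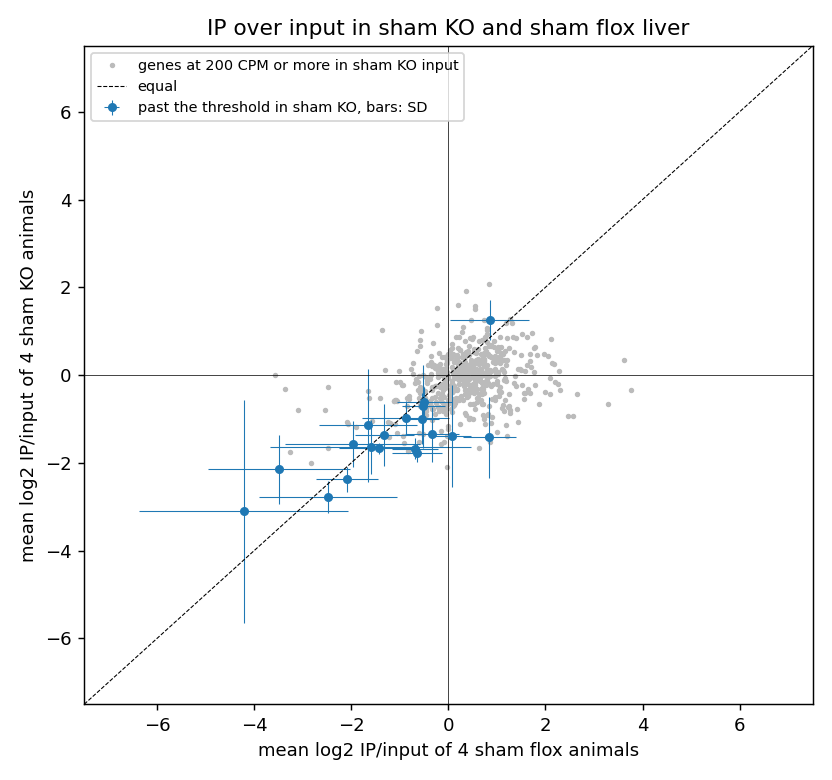
Mean log2 IP/input of 4 sham KO animals (vertical) against that of 4 sham flox animals (horizontal) for genes at 200 CPM or more in sham KO input; genes past the threshold in sham KO are blue, with the SD of each group as bars, and the dashed line marks equal values. Most blue genes lie below 0 on both axes, and most of the grey cloud lies to the right of the dashed line.

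The ratio itself differed between the genotypes for 11 kept genes, 1 higher and 10 lower in sham KO. These were 0.0348% and 0.348% of the kept genes, by edgeR over 16 libraries and 12407 genes (0.00806% and 0.0806% of all genes fitted), against a median difference of -0.85 over all kept genes; without TMM factors that median was -0.45 and the split was 2 higher and 3 lower, and with DESeq2's size factors 2 and 4. Of the lower genes, 3 were major urinary proteins. Mup11 had a mean log2 ratio of -2.89 ± 0.78 in sham KO and 1.0 ± 0.435 in sham flox, a difference of -4.07 (SE 0.61, adjusted p = 8.2e-08 by edgeR). Mup3 (-1.42 ± 0.928 against 0.85 ± 0.554) differed by -2.39 (SE 0.31, adjusted p = 2.2e-10 by edgeR), and Mup7 by -4.57 (SE 0.96, adjusted p = 0.0041 by edgeR). Mup11 passed in 17 of 17 alternatives, Mup3 in 14, Mup7 and Orm2 in 13 and Apoa1 in 10, but Fabp1 in 7, Egfr in 6, Gm10925 in 4, and ATP6 and Serpina1c in 3.

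For Mup11 the input level was 184 ± 99.4 CPM in sham KO and 616 ± 358 CPM in sham flox, and the IP level 25.7 ± 14.4 CPM and 1179 ± 1067 CPM. Fabp1, which carries fatty acids in the hepatocyte, had a mean log2 ratio of 1.70 ± 0.257 in sham flox, with IP at 2636 ± 342 CPM, against 1153 ± 302 CPM in sham KO with inputs of 969 ± 114 and 993 ± 269 CPM; the difference was -1.61 (SE 0.34, adjusted p = 0.0041 by edgeR). Apolipoprotein A1 (Apoa1) differed by -0.85 (SE 0.12, adjusted p = 1.6e-08) and the growth factor receptor Egfr by -1.29 (SE 0.28, adjusted p = 0.0052), both by edgeR. The Apoa1 difference was equal to the median over all kept genes, but 1441 of those lay at 50 to 100 CPM in input, far below Apoa1. They were also kept by the sham KO input, the denominator of the sham KO ratio. Among the 118 genes at 1000 CPM or more, the median log2 ratio was 0.269 in sham flox and -0.084 in sham KO. Orm2, an acute phase glycoprotein, was the single gene higher in KO. Its mean log2 ratio was 0.003 ± 0.731 in sham KO and -3.58 ± 2.63 in sham flox, where the animals ranged from -5.71 to 0.23. The fitted difference was 3.88 (SE 0.71, adjusted p = 0.00019 by edgeR), and Orm2 did not pass without sham flox replicate 1.

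The calls in sham KO rested on spread estimated over all genes. In that fit, edgeR gave an infinite prior weight to the common trend for 10045 of 10227 genes. Fitted over the 2870 kept genes alone, the prior was worth 3.7 degrees of freedom and no gene passed in edgeR (smallest adjusted p = 0.15, for Steap4 and B3galt1). At an unadjusted p under 0.05, 67 were higher and 44 lower in that fit. A share of 0.05 of the genes would be expected to do so with no true difference. With upper-quartile scaling the split was 5 higher and 12 lower. DESeq2 called 46 higher and 37 lower, of which 3 were among the 18.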

How the data were processed

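The authors' deposited table holds expected counts per gene (not all whole numbers) for 32 libraries of 16 animals. Per the submitters' processing notes, fastp and STAR were used; their versions and the genome build, annotation, counter and strand setting were not given in the sources used here. Counts were rounded to whole numbers. Groups came from the labels, with the 4 animals of a group as replicates. Input and IP were paired because the labels give both libraries to 1 animal; the deviations of the 4 pairs from their group means correlated at 0.057, -0.124, -0.035 and 0.075.

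Genes were named by position from RefSeq GRCm38.p6 (35469 genes; 461 after shifting all positions by 1000000 bases, a check of chance matches). The main test was edgeR 4.0.16 (R 4.3.3, quasi-likelihood, legacy setting, TMM factors, filterByExpr with a minimum count of 10) with the animal as a block, adjusted by Benjamini-Hochberg over all genes fitted, threshold 0.05. Of the kept genes, 2870 were fitted. CPM are scaled to the library total; per-animal ratios are log2((IP CPM + 1)/(input CPM + 1)) on TMM-scaled CPM. Sham KO and sham flox were compared by the interaction of genotype with IP. With 4 pairs, an exact sign-flip test of 1 gene cannot go below p = 0.125, so none is given. DESeq2 1.42.0, limma 3.58.1, other scalings and filters, and leaving out each replicate were alternatives. The test was tried on simulated data, but the outcome is not given here and nothing is read from it. Floors cover counting error only. SE is the absolute log2 change divided by the square root of edgeR's F statistic, and SD is the spread of the per-animal values of a group.

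Named genes were Mettl14 and the fibrinogen chains, in each direction at most 15 genes past the threshold by size of change, with 1 sign in 4 of 4 animals, filled up to 10 with those of smallest p, up to 4 members of each list by p, and up to 5 each way for the comparison with sham flox. Other genes past the threshold, and those said to be so, were named after their values were seen. Members and lists were chosen with earlier results of these data known.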

Additional observations from a re-analysis of the deposited data

Results flagged for a closer look

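The IP library of sham KO replicate 4 stood apart from the other 3 IP libraries in 2 measures: it had 16846 genes at 10 counts or more, against 11013 to 11819, and 8.22% of its values were not whole numbers, against 3.43% to 3.84%. It was also the deepest. About 1 in 20 groups is marked by chance.

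The difference in log2 IP/input between sham KO and sham flox passed edgeR's test of the difference for 11 kept genes. Among secreted proteins it was -4.57 for Mup7, -4.07 for Mup11, -2.39 for Mup3, -1.0 for Serpina1c, -0.85 for Apoa1 and 3.88 for Orm2. It was -1.61 for Fabp1, -1.29 for Egfr, -0.82 for the mitochondrial ATP6 and -0.76 for Gm10925. The last pair differed by less than the median over all kept genes (-0.85), and their calls were kept in 3 and 4 of 17 alternatives. That median covers mostly genes of low level. At 1000 CPM or more the median log2 ratio was 0.269 in sham flox and -0.084 in sham KO. For the zinc finger gene Zfp62 it was -12.46, a fitted value that depends on the prior count, since the sham flox inputs averaged 0.0203 CPM.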

How the results depend on the processing

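In sham KO, 1 kept gene was higher and 18 lower. Without the replicate block the counts were 0 and 5, in the fit over kept genes alone 0 and 0, with DESeq2 46 and 37, and with limma on per-animal ratios 34 and 48. Without TMM factors 2 were higher, with upper-quartile factors 5, and with genes kept by the other 12 animals' inputs, or by the mean of IP and input, 2. Leaving out each replicate gave 0 to 1 higher and 6 to 27 lower: 6 lower without replicate 1, 27 without replicate 2, 7 without replicate 3 and 9 without replicate 4. None of the 19 genes past the threshold changed direction. Genes that did not pass did so in at least 1 alternative, among them Orm2, Cpt1a, Hrg, Plg, Ptprb, Virma and Fabp1. Against sham flox, 1 was higher and 10 lower. The higher count was 0 without the replicate block (7 lower), 2 without TMM factors, 2 with DESeq2 size factors, 0 over kept genes alone, 6 with DESeq2 and 0 with limma. The lower count was 3 over all 32 libraries, 3 without TMM factors, 5 with upper-quartile factors, 4 with DESeq2 size factors, 1 over kept genes alone, 5 with edgeR's newer setting, 235 with DESeq2 and 3 with limma. Leaving out replicates gave 0 to 2 higher and 6 to 13 lower. The cause was not tested.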
